A study of Mus musculus with 18 samples.

Results

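Gene deserts are long stretches of the genome without protein-coding genes, and DNA methylation in those of mouse spleen cells was compared between WT mice and mice that carry the Dnmt3a R878H/+ mutation. A member was an autosomal region, listed by the authors' region caller for CD11b+ or for CD4+ cells, that lay outside every protein-coding gene body and more than 200 kb from any protein-coding transcription start of the GENCODE annotation of mm10. The rule found 33128 of 407396 autosomal regions (8.13%) in CD11b+ cells and 51754 of 547975 (9.44%) in CD4+ cells. The rule itself uses distance and annotation and no methylation value. It was applied, however, to regions that the caller had drawn from the methylation of these same samples. The list of candidates is therefore not independent of the levels described below. Members lay in 829 gene-free intervals, and their median distance from a start was 340 kb in CD11b+ and 351 kb in CD4+ cells.

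Methylation of cytosine in CpG dinucleotides is written by the de novo enzymes DNMT3A and DNMT3B and copied after replication by DNMT1. Most CpGs of a mammalian cell are methylated, while active promoters and enhancers are poorly methylated. Gene deserts are poor in CpGs and rich in repeats, and some of them hold distant enhancers of the genes at their borders, often genes of transcription factors.

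The R878H substitution of mouse DNMT3A corresponds to the human hotspot R882H of clonal haematopoiesis, in which mutant blood stem cells expand. Mutant mice were Cre+ Dnmt3a R878H/+ animals, bred from the floxed allele Dnmt3a fl-R878H/+ and a Vav1-iCre transgene. The Vav1-driven iCre recombinase was constitutive, so that the heterozygous mutation was carried throughout the haematopoietic system. Controls were Dnmt3a+/+ mice, a name that the study used both for Cre+ Dnmt3a+/+ and for Cre- Dnmt3a fl-R878H/+ animals, and which of these gave the bisulfite libraries was not stated. All were on the C57BL/6 background and matched for sex and age. Splenic CD11b+ (myeloid) and CD4+ (T) cells were isolated on magnetic columns and analysed by whole-genome bisulfite sequencing (WGBS), with 4 WT and 4 Dnmt3a R878H/+ mice for each cell type.

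The deposited values were 1 mean methylation level per genotype and region, in percent, and neither per-mouse levels nor sequencing depth were given. Every level is therefore the authors' mean over n = 4 mice without an SD, no difference could be tested across mice, and all comparisons are descriptions. The tables left the genotypes unnamed. The column read as WT is the one with the higher methylation, as the study describes WT, and every direction rests on that reading. Loss is the WT mean minus the R878H/+ mean, in percentage points. The serial numbers in the sample titles were above 200 in 0 of 4 WT and 2 of 6 R878H/+ entries of CD11b+ cells, and in 1 of 4 WT and 4 of 4 R878H/+ entries of CD4+ cells. Their meaning was not given and their part in the differences was not tested. As a check of the cell labels, 6 of 7 myeloid marker genes had a lower median WT methylation over their gene body in CD11b+ cells, the exception being Itgam itself (92.5% against 88.5% in CD4+ cells). Likewise 6 of 7 T-cell marker genes were lower in CD4+ cells, the exception being Cd3e (86.5% against 77.5% in CD11b+ cells). Some of these medians rested on 1 or 2 regions, as for Lyz2, Cebpe and Cebpa. Tcf7 hardly differed (68.7% in CD4+ against 69.4% in CD11b+ cells).

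The following sequences belong to the members on which the results turn, and they show how CpGs are spaced in gene-desert regions that lost most methylation, that gained most, and that lay farthest from a gene. All are plus-strand sequence of mm10 from the RefSeq genome, with CpG dinucleotides in capitals and all other bases in lower case. Members longer than 300 bases are shown by their central 300 bases.
Largest loss in CD11b+ cells, between Cyp7b1 and Armc1, chr3:18625869-18626168: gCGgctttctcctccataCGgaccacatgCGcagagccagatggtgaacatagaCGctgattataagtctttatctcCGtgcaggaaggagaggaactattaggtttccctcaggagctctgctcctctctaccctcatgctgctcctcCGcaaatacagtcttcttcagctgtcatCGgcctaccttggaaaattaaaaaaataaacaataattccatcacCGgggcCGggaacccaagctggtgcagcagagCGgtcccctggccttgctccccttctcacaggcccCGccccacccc
Second largest loss in CD11b+ cells, between Fam49a and Mycn, chr12:12725010-12725309: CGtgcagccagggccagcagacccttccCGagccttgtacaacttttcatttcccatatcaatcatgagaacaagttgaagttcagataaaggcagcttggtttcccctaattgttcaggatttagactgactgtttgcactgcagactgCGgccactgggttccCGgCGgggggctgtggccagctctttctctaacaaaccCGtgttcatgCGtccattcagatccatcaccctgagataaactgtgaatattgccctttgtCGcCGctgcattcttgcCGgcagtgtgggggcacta
Large loss in both cell types, between Ndfip2 and Spry2, chr14:105501682-105501981: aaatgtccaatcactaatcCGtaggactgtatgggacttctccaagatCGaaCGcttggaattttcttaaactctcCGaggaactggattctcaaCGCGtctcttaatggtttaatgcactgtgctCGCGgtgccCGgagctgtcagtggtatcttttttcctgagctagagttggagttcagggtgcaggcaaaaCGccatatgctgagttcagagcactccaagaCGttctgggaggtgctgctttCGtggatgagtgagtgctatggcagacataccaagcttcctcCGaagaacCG
Largest loss in CD4+ cells, between Rngtt and Cnr1, chr4:33555379-33555476: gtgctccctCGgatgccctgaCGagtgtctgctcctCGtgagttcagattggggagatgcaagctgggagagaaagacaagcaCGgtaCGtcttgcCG
Largest gain in CD11b+ cells, between Ajap1 and A430005L14Rik, chr4:153724193-153724282: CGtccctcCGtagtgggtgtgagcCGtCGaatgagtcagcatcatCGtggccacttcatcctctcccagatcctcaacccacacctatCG
Largest gain in CD4+ cells, between Sox9 and Slc39a11, chr11:113173284-113173480: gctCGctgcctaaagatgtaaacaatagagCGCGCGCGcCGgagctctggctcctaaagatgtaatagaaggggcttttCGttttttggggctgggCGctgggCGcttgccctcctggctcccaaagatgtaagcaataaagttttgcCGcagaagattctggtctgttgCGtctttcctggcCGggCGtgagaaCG
Farthest from a start in CD11b+ cells, between Pcdh20 and Pcdh9, chr14:91150066-91150365: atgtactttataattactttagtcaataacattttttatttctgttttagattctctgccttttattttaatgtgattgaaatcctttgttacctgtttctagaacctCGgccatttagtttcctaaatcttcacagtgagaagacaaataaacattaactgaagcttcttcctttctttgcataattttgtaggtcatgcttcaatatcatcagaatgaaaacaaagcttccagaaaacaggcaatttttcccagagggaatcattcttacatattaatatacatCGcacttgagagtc
The shown stretches of the regions that lost most near Cyp7b1, Mycn and Ndfip2 hold 11, 10 and 14 CpGs in 300 bases. The stretch farthest from a start holds 2 in the same length, which is closer to the median of all members (1.39 CpGs per 100 bases in CD11b+ and 1.29 in CD4+ cells). The gained stretch beside Sox9 holds 14 CpGs in 197 bases, part of them in an uninterrupted run, and 93.9% of it is annotated as repeat.

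Methylation was lower in R878H/+ than in WT cells in nearly all listed gene-desert regions, by a small amount. In CD11b+ cells the median level of the members was 88.5% in WT and 82.7% in R878H/+ mice, and the median loss was 5.80 points (interquartile range 3.92 to 8.14). In CD4+ cells the medians were 88.9% and 82.2%, with a median loss of 6.38 points (4.46 to 8.77). Lower methylation in R878H/+ mice was found for 31113 of 33128 CD11b+ members (93.9%) and for 49982 of 51754 CD4+ members (96.6%), close to the 93.5% and 95.5% of all autosomal regions of the tables. The shift was thus spread over the members rather than carried by a few of them, and members with large differences were a minority. A loss above 20 points, the size the study set for a differentially methylated region, was found in 812 members (2.45%) in CD11b+ cells, against 6.95% of all autosomal regions of the table. In CD4+ cells it was found in 1030 members (1.99%), against 6.17% of all. The other criteria of the study were more than 10 CpGs and a q-value of the region caller below 0.05. The first was applied here to measured CpG cytosines. Listed regions held a median of 1.43 of these per CpG in CD11b+ and 1.5 in CD4+ cells. With both added, 48 of 13215 members (0.363%) remained in CD11b+ cells, against 1.38% of all autosomal regions with more than 10 CpG cytosines. In CD4+ cells 76 of 21901 (0.347%) remained, against 1.49% of all.

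**Figure D1:**
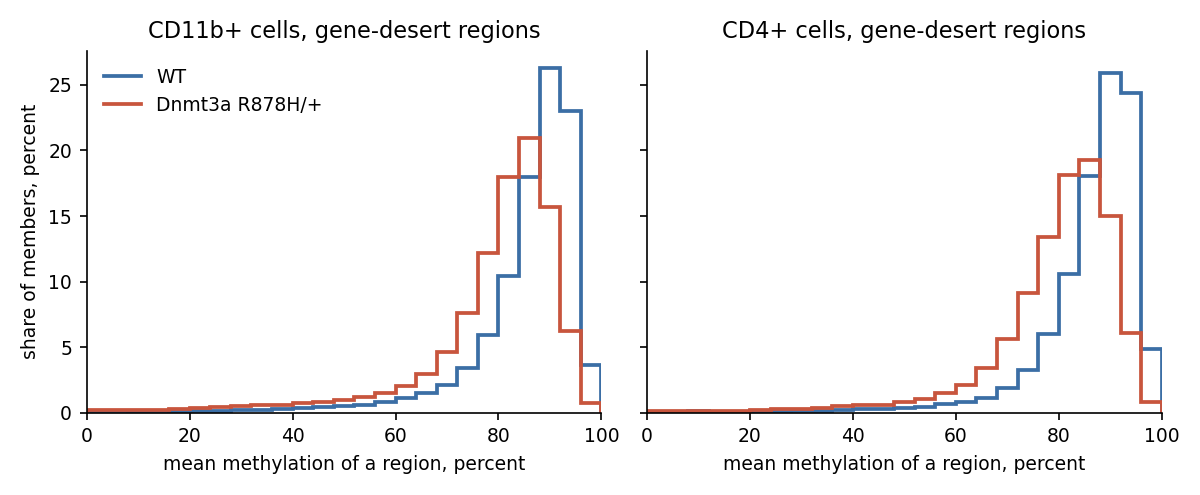
Histogram of the mean methylation of gene-desert regions (x axis, percent, bins of 4 points) as a share of all members (y axis, percent), for CD11b+ cells on the left and CD4+ cells on the right, with WT in blue and Dnmt3a R878H/+ in red. The whole R878H/+ distribution lies to the left of the WT one, with medians of 82.7% against 88.5% in CD11b+ cells and 82.2% against 88.9% in CD4+ cells.

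The members cover little of the space they come from. Sequence that meets the rule makes up 509 Mb or 21.2% of the autosomes, and holds 14.3% of their CpG cytosines. Members covered 3.88% of it in CD11b+ and 6.13% in CD4+ cells, and 6.47% and 10.3% of its CpG cytosines were measured in a member. Over all autosomes, listed regions held 11.7% and 16.1% of the CpG cytosines. Per megabase there were 65.1 members in CD11b+ and 102 in CD4+ cells, against 198 and 263 listed regions elsewhere. A typical member was short, with a median length of 559 bases in CD11b+ and 567 in CD4+ cells, and rested on few positions, with a median of 10 measured CpG cytosines, the lowest number listed, and a highest number of 65 and 60. The values below describe these listed stretches and not the gene-desert sequence between them.

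Outside gene deserts the median loss was larger, 6.62 points in CD11b+ and 6.90 points in CD4+ cells. The mean loss of the members was 6.39 points in CD11b+ cells, against 8.12 for all other autosomal regions, and 6.96 against 8.34 in CD4+ cells. The distance from a start ordered the intergenic regions in the same way in both cell types. The median loss in CD11b+ cells was 7.39 points at 1 to 10 kb, 6.88 at 10 to 50 kb, 6.38 at 50 to 200 kb, 5.92 at 200 to 500 kb, 5.58 at 500 to 1000 kb and 5.25 beyond 1000 kb. In CD4+ cells it was 7.58, 7.15, 6.80, 6.48, 6.25 and 5.86 points in the same classes. The interquartile ranges of neighbouring classes overlapped throughout.

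Large losses thinned out more steeply with distance than the median did. In CD11b+ cells a loss above 20 points was found in 7.90% of regions at 1 to 10 kb and 5.30% at 50 to 200 kb, then in 3.01% of members at 200 to 500 kb, 1.04% at 500 to 1000 kb and 3 of 1938 members (0.155%) beyond 1000 kb. In CD4+ cells the shares were 7.52%, 4.67%, 2.51%, 0.818% and 8 of 3472 members (0.230%). The median loss did not change abruptly at the distance that defines a member. Regions just inside the rule, at 200 to 210 kb, had a median loss of 6.05 points in CD11b+ and 6.55 points in CD4+ cells, and those just outside it, at 190 to 200 kb, had 6.08 and 6.60 points. A loss above 20 points was found in 68 of 1693 regions (4.02%) just inside and 91 of 1821 (5.00%) just outside in CD11b+ cells. In CD4+ cells the counts were 98 of 2497 (3.92%) and 105 of 2685 (3.91%).

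**Figure D2:**
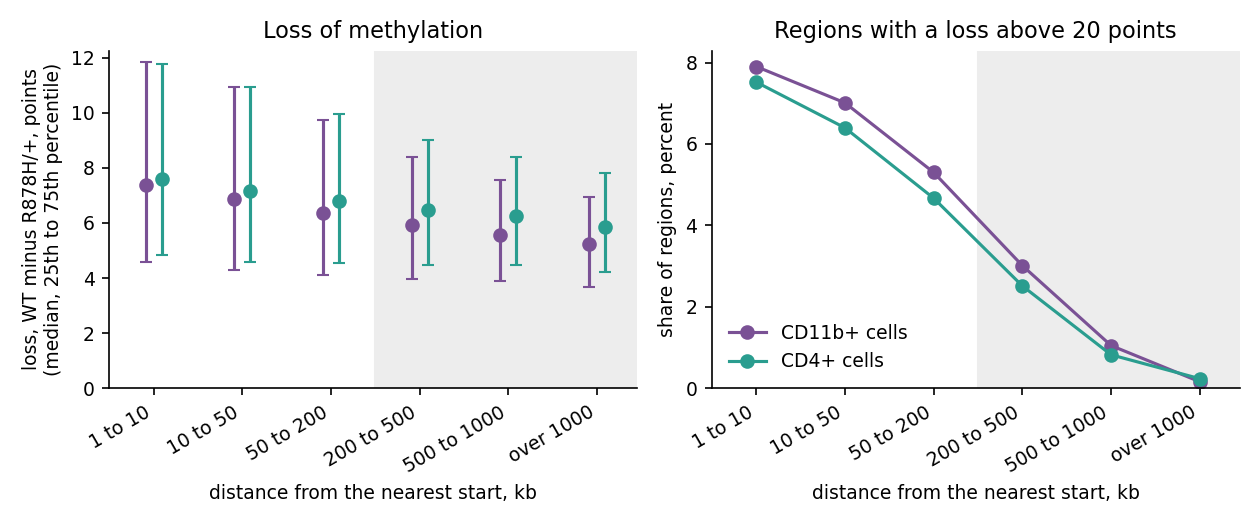
Loss of methylation of intergenic regions by distance from the nearest protein-coding start (x axis, kb), with gene-desert classes on grey. Left, median loss in points with bars from the lower to the upper quartile over regions; right, share of regions with a loss above 20 points, in percent; the share in CD11b+ cells goes from 7.90% at 1 to 10 kb to 0.155% beyond 1000 kb, and in CD4+ cells from 7.52% to 0.230%.

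The WT level and the sequence of a region also move with distance. The median GC content of intergenic regions in CD11b+ cells was 46.8% at 1 to 10 kb and 39.7% beyond 1000 kb, and CpGs per 100 bases went from 1.65 to 1.23. The other autosomal regions were weighted to the WT levels and CpG cytosine numbers of the members. The weighted share with a loss above 20 points was then 5.93% in CD11b+ cells and 5.99% in CD4+ cells, still above the 2.45% and 1.99% of the members. With CpG density matched as well, an alternative chosen after seeing the data, the shares were 4.90% and 4.64%. Against intergenic regions within 200 kb of a start alone, matched in all of these, they were 4.19% and 3.97%. In mean loss, the difference to all other regions in CD11b+ cells was -1.72 points unmatched, -1.64 matched on WT level and cytosine number and -1.44 with CpG density. In CD4+ cells it was -1.38, -1.51 and -1.28 points. The order held on single chromosomes too: on 19 of 19 autosomes the members had a smaller median loss and a smaller share of losses above 20 points than the other regions, in both tables. Over chromosomes, the share of members with such a loss ran from 1.40% on chromosome 5 to 4.31% on chromosome 13 in CD11b+ cells, and from 0.545% to 3.58% on the same chromosomes in CD4+ cells.

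The order by distance was steepest for regions that were between 50 and 80% methylated in WT cells. Among regions with a WT level of 50 to 80%, the median loss in CD11b+ cells was 13.5 points at 1 to 10 kb, 9.77 at 200 to 500 kb and 6.18 beyond 1000 kb, and in CD4+ cells 13.7, 9.90 and 7.49 points. Among regions above 90% it hardly moved, from 5.15 points at 1 to 10 kb to 4.73 beyond 1000 kb in CD11b+ cells and from 5.55 to 4.79 in CD4+ cells. The gap between intermediate and high WT levels was thus narrower, though not closed, among the most remote members. Below 50% in WT cells there was no such order: the median loss was 9.12 points at 1 to 10 kb, 10.5 at 50 to 200 kb, 9.96 at 200 to 500 kb and 9.40 at 500 to 1000 kb in CD11b+ cells, and 8.45, 9.20, 8.36 and 7.06 points in CD4+ cells. Beyond 1000 kb that band held 17 members in each table, with medians of 7.77 and -2.73 points.

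**Figure D3:**
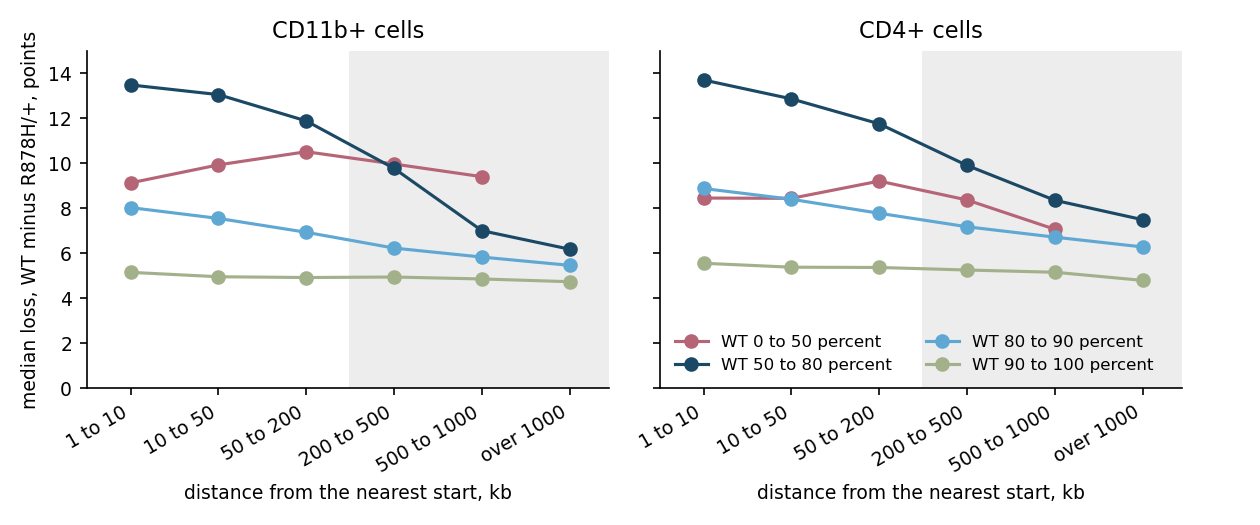
Median loss of methylation (y axis, points) of intergenic regions by distance from the nearest start (x axis, kb) within bands of the WT level, 0 to 50%, 50 to 80%, 80 to 90% and 90 to 100%, with gene-desert classes on grey and classes under 20 regions left out. The line for 50 to 80% descends from 13.5 to 6.18 points in CD11b+ cells and from 13.7 to 7.49 in CD4+ cells, while the line for 90 to 100% stays between 4.73 and 5.15 points in CD11b+ and between 4.79 and 5.55 in CD4+ cells. The line for 0 to 50% has no steady descent.

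Within the gene deserts, the size of the loss went with the WT level. Members at 20 to 50% in WT cells had the largest median loss, 11.3 points for 729 members in CD11b+ and 10.4 points for 716 members in CD4+ cells. At 50 to 80% it was 8.77 and 9.28 points, at 80 to 90% 6.06 and 6.98 points, and above 90% 4.90 and 5.20 points. The few members at or below 20% in WT cells, which had little methylation to lose, had a median loss of 2.80 points in CD11b+ and 2.16 points in CD4+ cells (n = 238). Of these, 100 members in CD11b+ and 94 in CD4+ cells were below 10% in both genotypes, a state known from active regulatory elements. The loss contains the WT level, so these are not independent measures.

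CpG-poor members lost methylation most regularly. With at most 1 CpG per 100 bases, 97.7% of members in CD11b+ and 99.4% in CD4+ cells were lower in R878H/+ mice, with a median loss of 6.08 and 6.98 points. With more than 5 CpGs per 100 bases, 71.6% and 71.2% were lower and the median loss was 2.73 and 2.70 points, although these members were the more methylated ones in WT cells (93.8% and 94.5%, against 86.5% and 86.8% at most 1 CpG). Such members were also short, with a median of 106 and 98 bases. Only 165 members in CD11b+ and 169 in CD4+ cells met the usual CpG island criteria of length, GC content and CpG frequency, and these were for the most part methylated repeats. In 129 and 147 of them WT methylation was above 80%, and a median of 93.9% and 94.1% of their bases was repeat. In contrast, 15 and 9 were below 20% in WT cells, and their median repeat content was 0%.

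The bases beside the CpGs also went with the loss. In CpGs flanked by A or T on both sides, methylation is known to be kept less well through cell division than in other CpGs. Members in which no CpG was of this kind had a median loss of 4.98 points in CD11b+ and 5.04 points in CD4+ cells, and those in which more than 50% were had 6.17 and 7.12 points. The WT levels of the same classes were 91.0% and 86.4% for CD11b+ members, and 91.9% and 86.6% for CD4+ members, so that flanking bases and WT level cannot be told apart here. Large losses went the other way: a loss above 20 points was found in 3.20% of members without such CpGs and in 1.30% of those rich in them in CD11b+ cells, and in 2.69% and 1.15% in CD4+ cells.

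Repeat-rich members had few large losses. Among members with more than 50% repeat sequence, 5 of 4050 (0.123%) in CD11b+ and 8 of 7110 (0.113%) in CD4+ cells lost more than 20 points. Among members with some repeat sequence, up to 50%, the counts were 612 of 24582 (2.49%) and 797 of 38118 (2.09%), and among those with no repeat base 195 of 4496 (4.34%) and 225 of 6526 (3.45%). Between the repeat-rich and the repeat-free members the median loss differed much less, 5.08 against 5.73 points in CD11b+ cells and 5.88 against 5.98 points in CD4+ cells. Repeat-rich members thus shared in the general shift and were seldom among the large losses, whose share was highest among members with no repeat base. Repeat-free members were also denser in CpGs, with 2.2 against 1.5 per 100 bases in CD11b+ and 2.1 against 1.3 in CD4+ cells. The lower quartile of their WT level was 82.2% against 85.5% in CD11b+ cells. Median repeat content of members rose with distance, from 13.1% at 200 to 500 kb to 25.1% beyond 1000 kb in CD11b+ cells. The part of each in the large losses was not tested.

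The member with the largest loss in CD11b+ cells was chr3:18625794-18626243, 382 kb from the start of Cyp7b1, which encodes an oxysterol hydroxylase. Its 17 measured cytosines averaged 70.9% in WT and 17.3% in R878H/+ mice. The overlapping CD4+ member, chr3:18625406-18626244, averaged 61.4% and 15.5% over 41 cytosines. Both lay over Gm42944, a transcript of uncertain coding status, and outside every protein-coding gene. The change extended to the members beside it: the left neighbour, which ended where it began, went from 33.3% to 5.21% in CD11b+ cells and, 0.025 kb away, from 31.4% to 6.05% in CD4+ cells. The right neighbours went from 90.6% to 73.2% and from 86.7% to 66.2%.

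The next largest loss in CD11b+ cells was at chr12:12725003-12725315, 215 kb from Mycn, a transcription factor gene of the MYC family. It averaged 56.8% in WT and 8.82% in R878H/+ mice over 14 cytosines. The member 0.047 kb to its right went from 70.3% to 33.4%, whereas the one 0.707 kb to its left went from 90.8% to 84.6%, within the usual range of loss. The change near Mycn thus extended to the right neighbour and not to the left one. The listed values do not show where it ends on either side.

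The widest of the named losses lay 206.4 kb from Ndfip2, which encodes an adaptor of NEDD4-type ubiquitin ligases, in the interval towards Spry2, an inhibitor of receptor tyrosine kinase signalling. In CD11b+ cells chr14:105500996-105502666 averaged 78.6% in WT and 33.7% in R878H/+ mice over 65 cytosines, the most of any member of that table. In CD4+ cells chr14:105500956-105501910 averaged 82.9% and 37.1% over 49 cytosines, and the member next to it on the right 82.1% and 48.2%. The stretch lies over the non-coding transcript 4930449E01Rik. Its neighbours in CD11b+ cells, with losses of 18.6 and 19.4 points, were also well above the median.

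In CD4+ cells the largest loss of all members was at chr4:33555379-33555476, 224 kb from Rngtt, the gene of the mRNA capping enzyme, with 64.9% in WT and 18.2% in R878H/+ mice. It rested on 10 cytosines and is named for its overlap with a CD11b+ member. The overlapping CD11b+ member, chr4:33555401-33555706, averaged 68.5% and 22.6%, also over 10 cytosines. A further CD4+ member, chr3:149497038-149497685 at 506 kb from the adhesion receptor gene Adgrl2, averaged 65.4% and 20.4% over 18 cytosines. Its left neighbour, 0.257 kb away, was nearly fully methylated in both genotypes, at 98.1% and 94.1%.

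Gains were rare. The R878H/+ mean was higher in 2015 members in CD11b+ and 1772 in CD4+ cells, but a gain above 20 points was found in 3 members in CD11b+ cells (background 0.209% of all autosomal regions) and in 2 members in CD4+ cells (background 0.00876%). A gain at the same place was found in both tables between Ajap1 and A430005L14Rik. The CD11b+ member chr4:153724193-153724282 averaged 49.8% in WT and 74.3% in R878H/+ mice, and the CD4+ member chr4:153724066-153724291 38.1% and 58.7%. Of its CD11b+ neighbours, that 0.126 kb to the left went from 88.3% to 81.8% and that 5.68 kb to the right, itself a gain, from 52.5% to 63.4%. The largest gain in CD4+ cells, chr11:113173284-113173480 beside Sox9, a transcription factor gene of cartilage and testis, went from 11.1% to 38.8% over 10 cytosines and lies over the long non-coding RNA gene 2610035D17Rik. The other named gain in CD11b+ cells, chr12:15377722-15377852 at 439 kb from Trib2, went from 60.7% to 83.6% in a stretch that is 95.4% repeat.

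The members farthest from a start lay between the protocadherin genes Pcdh20 and Pcdh9. In CD11b+ cells chr14:91149657-91150773, at 2678 kb from a start, averaged 86.9% in WT and 76.2% in R878H/+ mice. In CD4+ cells chr14:91191007-91191382, at 2694 kb, averaged 88.5% and 84.1%. Both lost methylation, the first by more and the second by less than the median member of its table.

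Protein-coding genes alone defined the members, and other annotation lies within the gene deserts. In CD11b+ cells 5067 members lay over a long non-coding RNA gene, with a median loss of 6.00 points, against 5.77 for the others, and 3.95% of them lost more than 20 points, against 2.18%. In CD4+ cells 7372 members did, with 6.62 against 6.35 points and 3.27% against 1.78%. Close to the starts of these genes the loss was larger. Within 1 kb of a long non-coding RNA start, 667 members had a median loss of 6.62 points in CD11b+ and 912 members 7.17 points in CD4+ cells, and 5.25% and 5.59% lost more than 20 points. Their WT medians were lower, 87.0% and 88.0% against 88.5% and 88.9% of all members. The share of members over such a gene also fell with distance, from 17.3% at 200 to 500 kb to 7.28% beyond 1000 kb in CD11b+ cells. The part of WT level and distance in these differences was not tested. Members over pseudogenes showed few large losses, 1 of 364 in CD11b+ and 3 of 589 in CD4+ cells. The 18 and 31 members over immunoglobulin or T-cell receptor segments had a median loss of 6.98 and 6.92 points. None lost more than 20, but they are too few to differ visibly from the shares of all members (2.45% and 1.99%).

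Members over a RefSeq enhancer lost more methylation than the typical member. They numbered 86 in CD11b+ and 97 in CD4+ cells, and for 82 and 93 of them the element was a VISTA enhancer, tested in transgenic mouse embryos and not in blood cells. The median level went from 85.3% to 76.2% in CD11b+ cells, with a median loss of 8.19 points, and from 83.2% to 72.6% in CD4+ cells, with a median loss of 8.96 points. A loss above 20 points was found in 7 (8.14%) and 11 (11.3%) of them. The shares were 2.45% and 1.99% among all members, and 6.95% and 6.17% among all autosomal regions. Some elements held several of these members, so the members are not separate enhancers. The WT level of these members was lower than that of all members, and its part in the difference was not tested. The following examples were chosen after their values were seen. Between Rps24 and Zmiz1, 350 kb from the start of Zmiz1, a transcriptional coactivator gene, the CD4+ member chr14:25108573-25108811 went from 86.7% to 45.6%, another CD4+ member in the same element, chr14:25108313-25108545, from 25.4% to 13.7%, and the CD11b+ member chr14:25108128-25108960 from 69.8% to 31.6%. Between Myc and Gsdmc, 905 kb from the nearest start, chr15:62903145-62903518 went from 56.9% to 24.6% in CD11b+ cells, and chr15:62903256-62903634 from 63.4% to 37.8% in CD4+ cells. The annotated activity of both elements includes the embryonic neural tube.

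Methylation was lower in R878H/+ mice in every well-filled interval, by differing amounts. Of 829 intervals, 501 held at least 20 members in both tables, and all 501 had a median loss above 0 in either cell type. The medians ranged from 3.25 to 13.0 points in CD11b+ cells and from 4.57 to 10.0 points in CD4+ cells. Over these intervals the median losses of the cell types had a Pearson coefficient of 0.608 and a Spearman coefficient of 0.581, given as a description, since the intervals share their sequence, annotation and CpG content in both tables. The 5 intervals with the most members all lay close to the general median. The largest, between the adhesion receptor genes Adgrl2 and Adgrl4 on chromosome 3, spans 2447 kb and had a median loss of 6.19 points over 305 members in CD11b+ and 6.67 points over 419 members in CD4+ cells. Between Vrk1 and 3110018I06Rik the values were 5.14 and 6.47 points, between Kcnj2 and Sox9 6.00 and 6.45 points, between Ttll7 and Adgrl2 6.02 and 6.35 points, and between Nudt12 and Efna5 5.97 and 6.60 points.

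**Figure D4:**
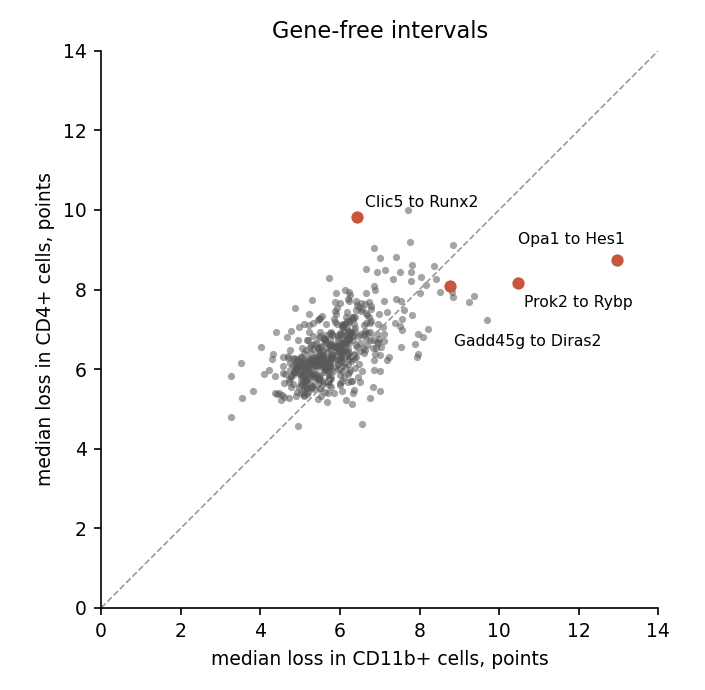
Median loss of methylation in CD11b+ cells (x axis, points) against CD4+ cells (y axis, points) for 501 gene-free intervals with at least 20 members in both tables, 1 point per interval, with the line of equal loss dashed. Most intervals lie between 4 and 8 points on both axes, and the named ones in red lie at the upper ends, with Opa1 to Hes1 at 13.0 points in CD11b+ cells.

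Large losses were found in a part of the intervals. In CD11b+ cells 261 of 807 intervals held a loss above 20 points, in CD4+ cells 276 of 824, and 228 held such losses in both tables. The 20 intervals with the most, ranked by this count itself, held 215 of the 812 in CD11b+ cells and 291 of the 1030 in CD4+ cells. The share of all members in these intervals was not computed, so whether large losses were concentrated there cannot be read from these counts. The intervals named in this paragraph were picked after their values were seen. The most large losses of any interval lay between Cd83, a surface protein gene of mature dendritic cells and activated lymphocytes, and Jarid2, a cofactor gene of Polycomb repressive complex 2, with 24 among 239 members in CD11b+ and 31 among 295 in CD4+ cells. Between Runx1, a transcription factor gene needed for the formation of blood stem cells, and Setd4 there were 14 and 24. In both cell types this was a larger share than among all members. Between the stress-response gene Gadd45g and Diras2 there were 13 among 99 and 18 among 133, and the median loss was 8.78 and 8.08 points. The largest interval median in CD11b+ cells, 13.0 points over 24 members, lay between Opa1 and the Notch target gene Hes1, where CD4+ cells had 8.75 points over 23. Between Prok2 and Rybp it was 10.5 and 8.16 points. A contrary case was the interval between Clic5 and Runx2, a transcription factor gene of bone formation, with 6.44 points in CD11b+ and 9.83 points in CD4+ cells over 20 and 21 members. At the lower end, between Gm21863 and Asap2, the median loss was 3.25 points over 20 members in CD11b+ and 4.799 points over 32 in CD4+ cells, and only 12 and 22 of these were lower in R878H/+ mice.

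In the interval between Adgrl2 and Adgrl4 the large losses lay towards Adgrl2. At 200 to 500 kb from its Adgrl2 border, 15 of 125 members in CD11b+ and 15 of 142 in CD4+ cells lost more than 20 points. From 500 to 1000 kb there were 3 of 83 and 3 of 129, and farther away 1 of 97 and 0 of 148. The median loss over the same steps was 7.34, 6.35 and 5.30 points in CD11b+ and 7.24, 6.57 and 6.49 points in CD4+ cells. Within 500 kb of the Adgrl4 border, which had far fewer members, 1 of 29 in CD11b+ and 0 of 39 in CD4+ cells lost more than 20 points. Neighbouring members as a rule did not resemble each other in the size of their loss. Over 10012 adjacent pairs less than 2 kb apart in CD11b+ cells the Spearman coefficient of their losses was 0.059, and over 18586 pairs in CD4+ cells 0.034, where the caller itself places borders at changes in level. After a member with a loss above 20 points, the next one within 2 kb also exceeded 20 points in 10.2% of cases in CD11b+ and 8.92% in CD4+ cells, against 4.00% and 3.23% after any other member.

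**Figure D5:**
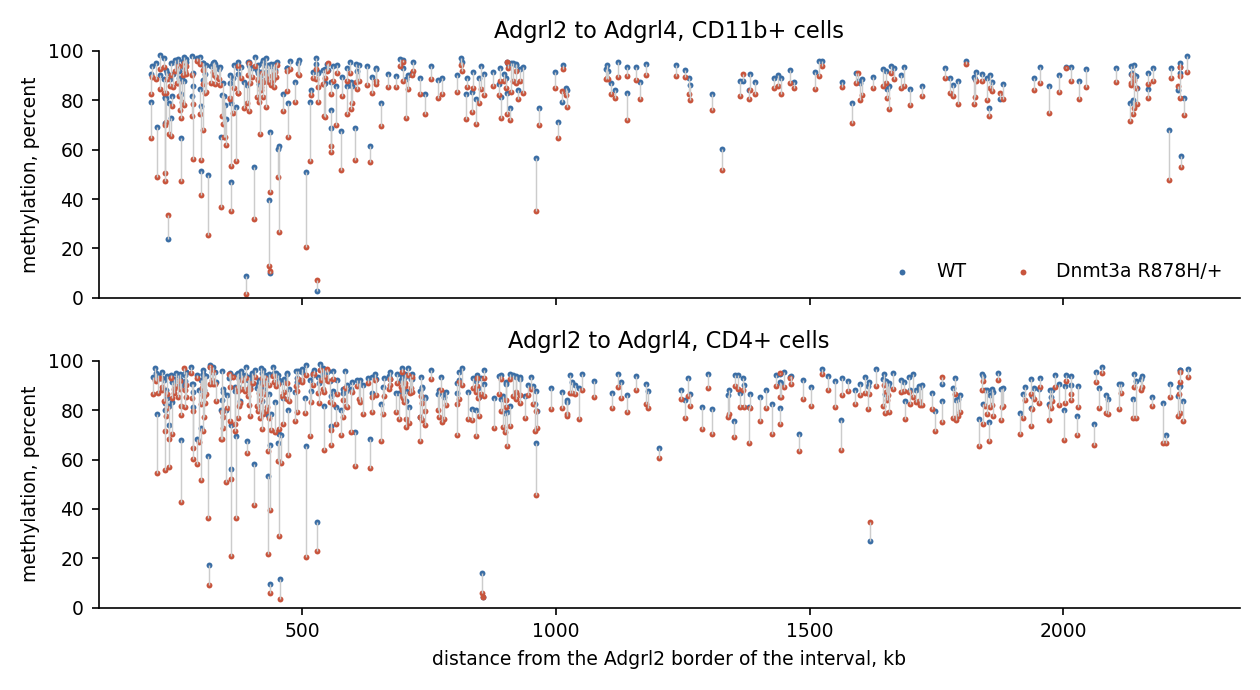
Mean methylation (y axis, percent) of each member along the interval between Adgrl2 and Adgrl4, by distance from its Adgrl2 border (x axis, kb), with WT in blue, Dnmt3a R878H/+ in red and a grey line joining both values of a member. Long grey lines, the large losses, crowd at 200 to 500 kb, where 15 of 125 members in CD11b+ cells (upper plot) and 15 of 142 in CD4+ cells (lower plot) lost more than 20 points.

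Genes that border the deserts were described by 2 lists of 30 genes each. Of the blood and lymphoid regulators, 18 bordered 23 intervals with members, and of developmental regulators known for long flanking space, 23 bordered 29. In the deserts beside blood regulators 93 of 1823 members (5.10%) lost more than 20 points in CD11b+ cells, beside 2.45% of all members, and 130 of 2594 (5.01%) in CD4+ cells, beside 1.99%. The median losses were 6.20 and 6.72 points, beside 5.80 and 6.38. In the deserts beside developmental regulators the shares were 2.55% (56 of 2195) and 2.15% (69 of 3214), close to those of all members, and the medians 5.88 and 6.35 points. WT medians differed between the lists, 90.7% and 91.2% beside blood regulators and 88.2% and 88.5% beside developmental ones.

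Among the blood regulators the deserts ranged widely. That between Maf, a transcription factor gene of macrophages and T helper cells, and Wwox held 7 large losses among 49 members in CD11b+ and 10 among 68 in CD4+ cells, with a median loss of 8.05 and 8.31 points. On its other side, towards Dynlrb2, there were 2 of 78 and 1 of 94, with 5.58 and 6.35 points. The flanks of this gene thus differed in both cell types. Between Bcl11a, a repressor gene of fetal globin that is also needed for B cells, and 5730522E02Rik the counts were 9 of 106 and 7 of 143, and between Sox4 and Gm11361 they were 7 of 64 and 7 of 83. Between Prdm1, the gene of the plasma-cell and effector T-cell factor BLIMP1, and Prep the median losses were 8.25 and 8.12 points, with 1 of 17 and 5 of 32 large losses. Beside Gata3, a master regulator gene of T helper cells, the 2348 kb desert towards Celf2 held 6 of 173 and 12 of 275. Beside Bcl11b, a T-cell commitment gene, none of 26 and none of 45 members towards 3110018I06Rik lost more than 20 points, numbers at which the shares of all members (2.45% and 1.99%) would give about 1 or none. The desert between Myc and Gsdmc, with high WT medians (93.6% and 93.9%), had median losses of 5.71 and 5.68 points. It held 7 and 10 large losses, in both cell types a larger share than among all members (2.45% and 1.99%).

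Beside developmental regulators large losses were together about as frequent as among all members, and single deserts differed. None were found in either cell type between Id4 and Rnf144b (107 and 146 members) or between Shh, the gene of a morphogen, and Rnf32 (24 and 39 members), although the last of these holds too few members to differ visibly from the shares of all members. Between Irx3 and Irx5, homeobox genes of a shared cluster, 7 of 58 members in CD11b+ and 8 of 86 in CD4+ cells lost more than 20 points, with a median loss of 7.33 and 8.26 points. Between Lmo4, a LIM-domain cofactor gene that is active in many tissues, and Pkn2 there were 11 of 175 and 16 of 283. The desert between Sox9 and Kcnj2 had the most members of this list. It held 9 of 238 and 10 of 337 large losses, and that between Sox9 and Slc39a11 held 7 and 13, with a median loss of 6.64 and 7.65 points. Large losses between Sox9 and Slc39a11 were in both cell types a larger share than among all members.

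The tables were segmented separately, and members had a counterpart in the other cell type less often than other regions. With an overlap of at least 1 base, 16159 CD11b+ members (48.8% of that list) met 16688 CD4+ members (32.2% of that list) in 17794 pairs, beside 59.8% and 47.0% of the listed regions outside gene deserts. Listed regions were also sparser in gene deserts than elsewhere, and the part of this in the lower overlap was not tested. In 92.7% of the member pairs both cell types were lower in R878H/+ mice, and the median loss was 6.46 points in CD11b+ and 7.08 points in CD4+ cells. Over the pairs the Pearson coefficient was 0.808 for the WT level and 0.619 for the loss, a description only, since a pair shares its CpGs. Of 891 pairs with a loss above 20 points in CD11b+ cells, 470 (52.7%) had one in CD4+ cells, and of 945 in CD4+ cells the same 470 (49.7%) had one in CD11b+ cells. In the 421 pairs past 20 points in CD11b+ cells alone the median CD4+ loss was 13.6 points, and in the 475 past it in CD4+ cells alone the median CD11b+ loss was 13.8 points.

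Members whose WT level differed between the cell types were compared with a reciprocal overlap of at least 50%, which left 10261 pairs. In 160 pairs WT methylation was more than 20 points lower in CD11b+ than in CD4+ cells. Their median level went from 50.7% to 32.7% in CD11b+ cells and from 75.5% to 56.7% in CD4+ cells, a median loss of 15.9 and 17.9 points, and 49 and 66 of them lost more than 20 points. In 40 pairs it was more than 20 points lower in CD4+ cells, and there the losses were smaller, 8.94 points in CD11b+ and 9.35 points in CD4+ cells, with 1 and 5 above 20 points. Both sets of medians lay above those of the 7798 pairs with WT levels within 5 points, 6.12 and 6.77 points. Of these 7798 pairs, 210 in CD11b+ and 195 in CD4+ cells lost more than 20 points. Among all 10261 pairs the counts were 527 and 560. The pairs within 5 points also had higher WT medians, 88.7% and 89.2%. The sets were picked on the WT level, which the loss contains, and its part in these differences was not tested.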

How the data were processed

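Whole-genome bisulfite sequencing was available for splenic CD11b+ and CD4+ cells of 4 WT and 4 Dnmt3a R878H/+ mice each (18 entries in the labels, since R878H/+ CD11b+ replicates 3 and 4 appear more than once). Reads were mapped by the authors with BISCUIT (mm10), who then segmented the CpG methylation ratios with metilene. Tool versions, the settings of the segmentation and a minimum coverage per site are not given in the sources used here. The deposited tables give, for each region, the mean methylation of each genotype in percent, the number of CpG cytosines and a q-value of the region caller. They also hold the authors' comparison columns, namely the difference of the means, a Mann-Whitney p-value and a 2-dimensional Kolmogorov-Smirnov p-value, which were not used. The q-value served as a filter in 1 count per cell type. Columns of per-sample values numbered 0, and depth was absent. Every mean was a whole step of 4 samples (100% of regions, within the rounding of the table, against 50% for 6), so the repeated entries did not count as extra mice.

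Coordinates are mm10, counted from 1. Gene bodies and transcription starts came from GENCODE release M21, and sequence, repeats (soft-masked bases) and enhancers from the RefSeq GRCm38 genome. A gene-free interval is the space between merged protein-coding gene bodies. CpG islands were called at 200 bases, 50% GC and an observed to expected ratio of 0.6. Matching weighted other regions to the members over bins of 10 points of WT methylation and of the number of CpG cytosines. The standardisation and the assignment of members were tested on simulated data. The members, the gene lists and the rules were chosen with earlier results of these data known. Outside chromosome 18, the text names the 3 members with more than 10 cytosines and the largest loss, the 2 with the largest gain and the 1 farthest from a start in each table, the 3 overlapping pairs whose smaller loss was largest, the 5 intervals with the most members, and listed genes at interval borders. Others are stated to have been picked after their values were seen. For 1 listed gene the result is not reported here. Alternatives were other distances, annotations, cytosine numbers, loss sizes, weights and overlaps. Sequences were read with pysam 0.24.0, figures drawn with matplotlib 3.10.9, and values computed in Python 3.11.15 with pandas 2.3.3, scipy 1.17.1 and numpy 2.4.6.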

Additional observations from a re-analysis of the deposited data

Results flagged for a closer look

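Gene-desert regions of the X chromosome met the same distance rule but lay outside the autosomal comparison. In CD11b+ cells 332 of them had a median loss of 5.60 points, from 86.7% in WT to 81.8% in R878H/+ mice, and 81.0% were lower in R878H/+ mice. In CD4+ cells 526 had a median loss of 5.86 points, from 86.8% to 81.0%, and 91.3% were lower. They are listed here because they show a loss in data outside the main comparison. A loss above 20 points was found in 16 (4.82%) and 21 (3.99%) of them, beside 2.45% and 1.99% of the autosomal members. The share among all listed regions of the X chromosome was not computed, and the sex of the sequenced mice was not given. Whether the larger share belongs to X-chromosome deserts in particular cannot be read from these values.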

How the results depend on the processing

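No paired analysis was possible because the tables hold 1 mean per genotype and no value per mouse, and for the same reason no replicate could be left out. No alternative turned a direction. In CD11b+ cells the median loss of 5.80 points became 6.00 beyond 100 kb, 5.50 beyond 500 kb, 5.85 with gene 5′ ends as the only starts and 7.00 with more than 20 cytosines. In CD4+ cells 6.38 points became 6.52, 6.14, 6.25 with genes of every biotype, 6.27 with more than 10 cytosines, 6.97 with more than 20, and 6.34 with 1 value per interval. The share lower in R878H/+ mice, 93.9% in CD11b+ cells, became 93.2% beyond 500 kb, 94.2% with every biotype, 96.3% and 97.6% with more than 10 and 20 cytosines, 94.3% weighted by cytosines and 99.4% per interval. In CD4+ cells 96.6% became 96.8% with every biotype, 97.9% and 99.3% with more than 10 and 20 cytosines, 96.8% weighted and 99.6% per interval.

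Counts moved with the regions admitted and with the size of loss asked for, and the share of large losses moved too: beyond 500 kb it was 0.843% in CD11b+ and 0.68% in CD4+ cells, and with more than 20 cytosines 9.18% and 7.22%, against 2.45% and 1.99%. The 812 losses above 20 points in CD11b+ cells became 2104 beyond 100 kb, 72 beyond 500 kb, 32 with every biotype, 339 and 45 with more than 10 and 20 cytosines, 4801 and 145 at 10 and 30 points, and 48 with the q-value. The 1030 in CD4+ cells became 2588, 100, 39, 462, 75, 8763, 181 and 76. With every biotype 1959 and 3201 members remained. The overlapping share of CD11b+ members, 48.8%, became 31.0% at a reciprocal 50%. The share of large losses in deserts minus the rest was -4.89 points in CD11b+ and -4.62 in CD4+ cells. It became -3.48 and -3.998 with WT level and cytosine number matched, and -2.45 and -2.65 with CpG density too, chosen after seeing the data. The cause of these shifts was not tested. Without a depth per region, and with a median of 10 cytosines behind a value, single regions cannot be given an error.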
